A study of Neurospora crassa with 6 samples.

Results

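The cpc-1 mRNA (NCU04050) of Neurospora crassa is described here codon by codon in 2 reading frames, the second upstream open reading frame (uORF2) and the main CPC1 coding region. It is 1 of the 3 transcripts tabulated for the wild-type ribosome profiling data. Ribosome-protected fragments (footprints) came from mycelium of the wild-type strain FGSC2489 after 24 h of growth in darkness, without 3AT. The table pools 2 replicates, which leaves the spread between them unknown, and the other 4 of the 6 samples were not analysed here.

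CPC1 is the bZIP transcription factor that activates amino acid biosynthetic genes when amino acids are limiting, and it is the homolog of Saccharomyces cerevisiae Gcn4p. Its mRNA carries upstream open reading frames in a long 5′ leader, and in the established model for this class of mRNA a ribosome that has translated the inhibitory uORF does not go on to start at the main AUG. In ribosome profiling, each footprint marks a ribosome on the mRNA. The number of footprints at a codon depends on how many ribosomes pass and on how long each stays there, so a codon with many more footprints than its neighbours is usually called a pause. The word is used here only for a high count.

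The members are the A-site codons of both frames, the A site being the ribosomal site in which the next codon is read. Each footprint was assigned to the codon 15 nt downstream of its 5′ end. The AUG was counted as codon 1, so that the first A-site codon is codon 2, reached when the AUG is in the P site, and the last is the stop codon. Counting nucleotides of the transcript from 1, uAUG2 lies at nucleotide 331 and the uORF2 stop codon at nucleotides 454 to 456, while the CPC1 AUG lies at nucleotide 770 and its stop codon at nucleotides 1580 to 1582. uORF2 thus has A-site codons 2 to 42 (41 codons) and CPC1 has A-site codons 2 to 271 (270 codons). The members were chosen by these same footprint counts, since the limits of both frames had been placed on the table by the counts at the upstream AUGs. Levels, pauses, trends and frames within them are therefore given as descriptions, and 0 tests were made. No transcript sequence was used, so codons are named by number.

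Together the 311 codons held 1786 of the 2852 footprints of the transcript, or 62.6%. uORF2 held 1520 of them (53.3% of the transcript) and CPC1 held 266 (9.33%). Per codon, this was 37.1 in uORF2 (95% Poisson interval 35.2 to 39.0) and 0.985 in CPC1 (0.870 to 1.11). These intervals, and the Wilson intervals given for shares, cover counting error only, and not the spread between the pooled replicates. The reads carry no molecular identifiers, so copies of 1 fragment cannot be told apart and the intervals may be too narrow. At this depth almost every codon of uORF2 can be described singly, while CPC1 can be described only by its highest codons and by segments.

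In uORF2 the start stood out first. Codon 2, in the A site while uAUG2 is in the P site, held 188 footprints (Poisson interval 162 to 217), the most of any codon, and 181 of these were at a single 5′ end, nucleotide 319. Codon 3 held 20. Behind the start was a trough: codons 4 to 9 held 2, 10, 8, 0, 2 and 4 footprints, 26 in all, or 4.33 per codon. Codon 7 was the only A-site codon of uORF2 with no footprint (Poisson interval 0 to 3.69). Codon 10 then held 29 and codon 11 held 4.

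From codon 12 on, every codon had at least 6 footprints. Codons 12 to 18 held 22, 6, 15, 9, 28, 12 and 20 footprints. Codons 19 to 25 held 33, 35, 32, 40, 50, 23 and 17, or 32.9 per codon, against 16.1 over codons 10 to 18. The limits of these stretches were chosen after the counts were seen. Codons 18, 26 and 27, with 20, 25 and 66 footprints, were also above the 17 of codon 25. Codons 19 to 25 were smoother than what followed.

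Codons 26 to 33 were uneven. They held 25, 66, 15, 66, 93, 94, 14 and 122 footprints. Codon 32 with 14 footprints thus lay between codon 31 with 94 and codon 33 with 122, the highest codon inside the frame. After codon 33 the counts were lower again, with 41, 38, 6, 37, 21, 41 and 10 footprints at codons 34 to 40, or 27.7 per codon. The frame closed with 100 footprints at codon 41 and 122 at the stop codon, codon 42.

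**Figure D1:**
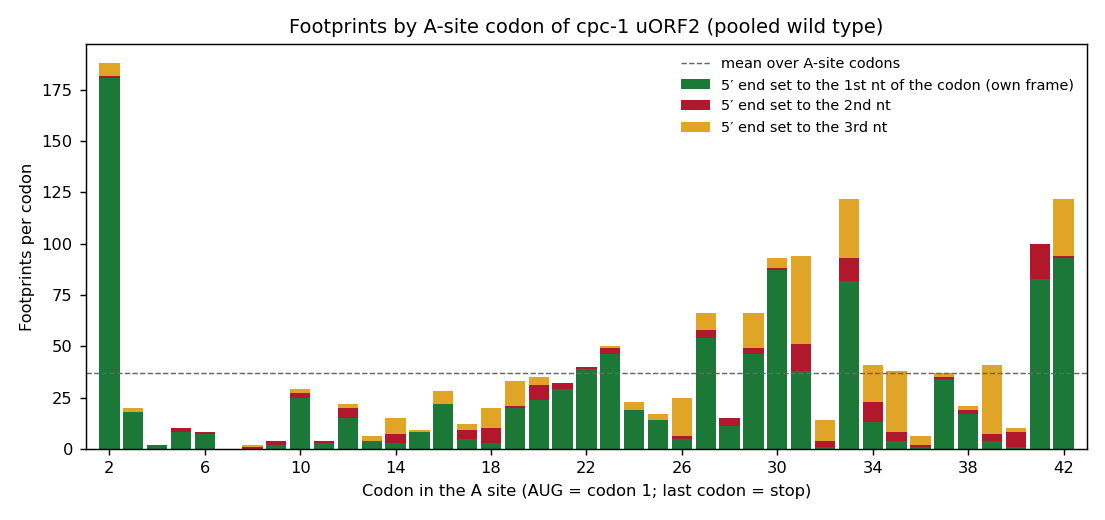
Footprints (y axis, counts) at each A-site codon of uORF2 (x axis, codon number with the AUG as codon 1), stacked by the nucleotide of the codon to which the 5′ end was assigned, with the mean of 37.1 as a dashed line. Codon 2 stands at 188, codons 4 to 9 lie near 0, and the counts climb to 122 at codon 33 and at the stop codon, codon 42.

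A codon was called a pause at 3 or more times the mean of its ORF and more than 3 footprints. In uORF2, where this meant at least 111 footprints, 3 of 41 codons were pauses (7.32%), codons 2, 33 and 42. They held 432 footprints, 28.4% of uORF2, and codons 33 and 42, each with 122, were the lowest of them. Just below the threshold were codons 41, 31 and 30 with 100, 94 and 93 footprints. At 2 times the mean these 3 were included, which gave 6 pauses. Of the 6 codons, only codon 2 lay before codon 30. The calls depended on how the 5′ end was read. With a 16-nt offset codon 33 held 103 footprints and only codon 2, with 186, passed. With a 14-nt offset, codons 2, 33 and 42 held 25, 53 and 36 footprints against a threshold of 98.5, so that 0 of the 3 pauses remained, and codons 29 and 41, with 107 and 110, passed instead.

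Single positions gave a different order from the codon totals. Beside the 181 footprints at codon 2, the highest 5′ ends had 93 footprints at codon 42, 87 at codon 30, 83 at codon 41 and 82 at codon 33, all assigned to the first nucleotide of the codon. The next 4 were also at first nucleotides or, for codon 31, at the last one: 54 at codon 27, 46 each at codons 23 and 29, and 43 at the third nucleotide of codon 31. Of the 123 positions of uORF2, 103 had footprints.

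The low counts at codons 32, 36 and 40 depended in part on where the codon boundary was set. Many footprints of the codon before each of them had their 5′ end assigned to the third nucleotide of that codon, 1 nt short of the next codon. These were 43 at codon 31, 30 at codon 35 and 34 at codon 39. With a 16-nt offset, such footprints move to the next codon. Codons 32, 36 and 40 then held 47, 32 and 42 footprints, against 14, 6 and 10 with the 15-nt offset. Codons 31, 35 and 39 held 56, 26 and 9, against 94, 38 and 41. The low count at codon 40 thus moved to codon 39. The trough at codons 4 to 9 held 28 footprints with the 16-nt offset, against 26 with the 15-nt offset. With a 14-nt offset these codons held 8, 9, 1, 0, 4 and 27, or 49 in all, so that codon 9 left the trough.

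In uORF2, codon 2 made up 12.4% of the footprints (Wilson interval 10.8 to 14.1%) and the stop codon 8.03% (6.76 to 9.50%). Against the mean of the codons between start and stop, the stop codon of uORF2 stood at 3.93 times that mean and codon 2 at 6.06 times. Of the 39 codons between them, 1 (codon 33) was as high as the stop codon and 0 were as high as codon 2. The start and stop of CPC1 held few footprints. Codon 2 of CPC1 held 3 footprints (Poisson interval 0.619 to 8.77), 1 at the first and 2 at the second nucleotide, and the 10 codons after it held 3 in all. This was 3.06 times the mean of its own inner codons, with an interval too wide to place it beside the start of uORF2, and 31 of the 268 inner codons were as high. The CPC1 stop codon held 0 of the 266 footprints (Wilson interval of the share 0 to 1.42%), and the 10 codons before it held 6. Shares of frames of such different length are not comparable.

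The edges of uORF2 were sharp on both sides. The frame limits had been placed by the counts at the upstream AUGs, so the sharp start was fixed by that placement. The 3 positions before its first 5′ end held 1, 5 and 4 footprints, against 181 at the first position. After the last position, which held 28, the next 3 held 7, 0 and 4, or 11 footprints, against the 122 at the stop codon. The stop codon value rests on a uORF2 of 42 codons. Placing the end 1 codon earlier gave 7.15% at the last codon, 3 codons earlier gave 3.18%, and 1 codon later gave 0.718%. An end at codon 40, which held only 10 footprints, was not among these lengths. For CPC1 the positions beside its first and last ones held 1 and 0 footprints, and 3 footprints lay between its last position and the end of the transcript.

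CPC1 was covered thinly. Of its 270 codons, 140 had no footprint, 60 had 1, 38 had 2, 18 had 3 and 14 had 4 or more. The mean of 0.985 put the pause threshold just under 3, so the requirement of more than 3 footprints decided the call, and the 14 codons with 4 or more were the pauses (5.19% of 270). They held 76 footprints, 28.6% of CPC1. The 18 codons with 3 were just outside.

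The highest codon of CPC1 was codon 17 with 8 footprints (Poisson interval 3.45 to 15.8), all at the first nucleotide, and the next was codon 133 with 7 (2.81 to 14.4), again all at the first nucleotide. Codons 70, 234, 242 and 258 held 6 each. Codons 69, 102, 210, 257 and 260 held 5 each, and codons 65, 171 and 231 held 4 each. The intervals of these 14 codons overlap widely, so their order is not fixed by the counts. Which codons passed also depended on the offset. With a 14-nt offset 14 codons again passed, but codons 17 and 133 held 0 footprints each. With a 16-nt offset 14 codons passed as well, codons 17 and 133 held 8 each and codon 234 held 0. Of the 41 codons of uORF2, 33 had more footprints than the highest codon of CPC1, and the 8 others were codons 4, 6 to 9, 11, 13 and 36.

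Several of the higher codons of CPC1 lay close together. Codons 65 to 70, from the first to the last of 3 pauses, held 16 footprints, or 2.67 per codon (1.52 to 4.33). Codons 257 to 260 held 18, or 4.50 per codon (2.67 to 7.11), and codons 231 to 260 held 49, or 1.63 per codon (1.21 to 2.16). These stretches were chosen after the counts had been seen. The longest run without a footprint was codons 193 to 204, 12 codons, followed by 7 codons from 124 to 130 and 6 codons each from 32 to 37 and from 143 to 148.

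**Figure D2:**
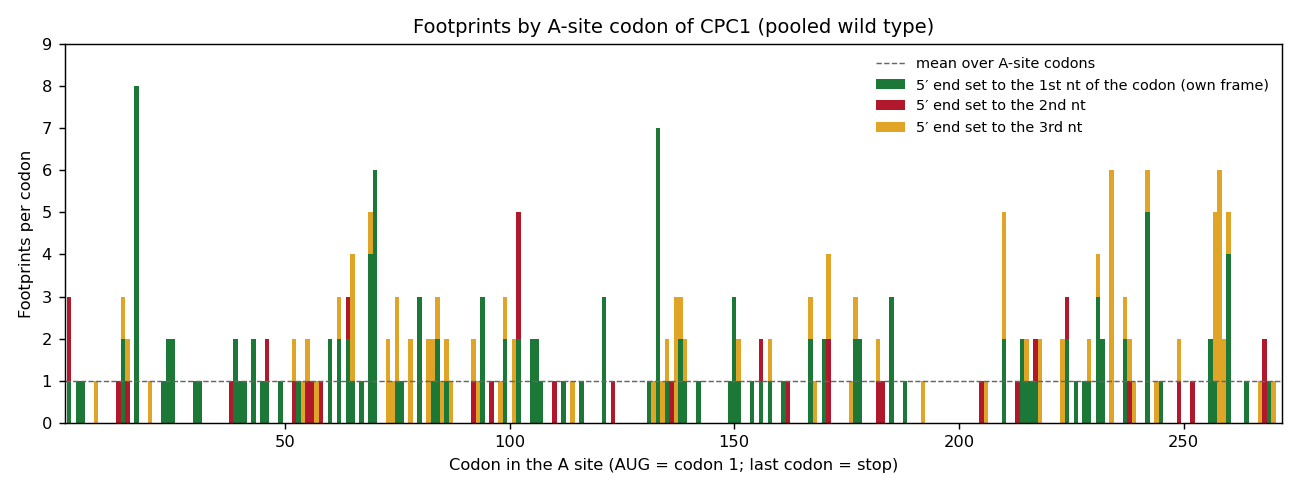
Footprints (y axis, counts) at each A-site codon of CPC1 (x axis, codon number with the AUG as codon 1), stacked by the nucleotide of the codon to which the 5′ end was assigned, with the mean of 0.985 as a dashed line. Codons 17 and 133 stand highest with 8 and 7 footprints, the first codon has 3 footprints and the stop codon 0.

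The frames differed 37.6 times in footprints per codon, and a plain count of covered codons therefore cannot be compared between them. Some measures less tied to depth gave similar values. The variance of the codon counts beyond counting error, divided by the squared mean, was 1.15 in uORF2 and 1.06 in CPC1, while the variance over the mean, which counting error alone would put at 1, was 43.6 and 2.04. Thinned to 40 footprints, which is the density of CPC1, uORF2 would on average have footprints on 48.8% of its codons, against 48.1% in CPC1. Without the first and the last A-site codon, the variance beyond counting error was 0.875 in uORF2 and 1.07 in CPC1, and the thinned coverage of uORF2 was 50.9%. No interval is given for these measures, since codons of 1 transcript are not replicates.

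The fewest codons that hold 50% of the footprints were 7 of 41 in uORF2 (17.1%) and 34 of 270 in CPC1 (12.6%). This measure does depend on depth, because at low counts counting error alone makes some codons higher than others. That lowers the share of codons that holds 50%, so the 2 shares cannot be compared. In uORF2 the 7 codons were codons 2, 27 or 29, 30, 31, 33, 41 and 42.

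Along uORF2 the footprints leaned to the 3′ end. Codons 22 to 42 held 1041 footprints, a share of 68.5% (66.1 to 70.8%), and codons 2 to 21 held 479. Per codon this was 49.6, against 24.0 in codons 2 to 21, and against 15.3 there when codon 2 was left out. The ratio without codon 2 was 3.24. Spearman's rho of the count with codon number was 0.50 over the 41 codons and 0.59 over the 39 without the first and the last, given as a description of codons of 1 transcript.

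By segments, uORF2 had 26.7 footprints per codon in codons 2 to 11 (Poisson interval 23.6 to 30.1), 21.2 in codons 12 to 21 (18.4 to 24.3), 48.9 in codons 22 to 31 (44.7 to 53.4) and 50.2 in codons 32 to 42 (46.1 to 54.5). The first segment owed most of its value to the start, since codons 3 to 11 held 79 footprints, or 8.78 per codon. Without codon 2, the counts per codon therefore stepped upward over the first 3 segments and stayed level between the last 2, whose intervals overlapped. These intervals cover counting error only, while the variance over the mean in uORF2 was 43.6, so they cannot set the segments apart. The rise was not made by the end of the frame alone: within codons 2 to 29, 59.2% of the footprints were in the later 14 codons, although codon 2 is among the earlier 14.

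CPC1 showed no such lean. Codons 137 to 271 held 127 footprints, a share of 47.7% (41.8 to 53.7%), and codons 2 to 136 held 139. Spearman's rho with codon number was -0.03 over 270 codons. Footprints per codon in 9 segments of 30 codons were lowest in codons 182 to 211, at 0.500 (0.280 to 0.825). They were highest in codons 62 to 91, at 1.50 (1.09 to 2.01). The intervals of these 2 segments, picked as the extremes of 9, did not overlap. Those intervals cover counting error only, while the variance over the mean in CPC1 was 2.04, so they cannot set the segments apart. The other 7 segments lay between 0.733 and 1.23, and their intervals all included the mean of 0.985. The footprints reached 50% at codon 133 of CPC1, near its middle, and at codon 29 of uORF2, 68.3% of the way along.

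**Figure D3:**
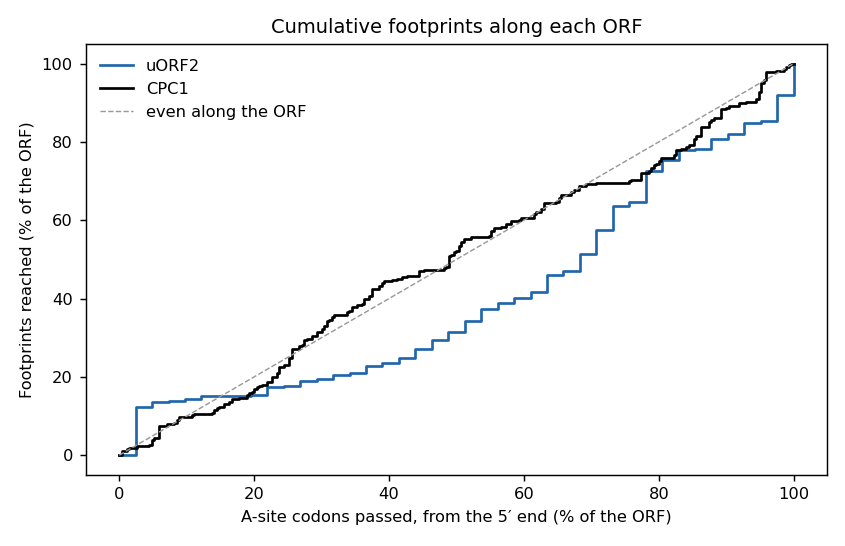
Share of footprints reached (y axis, %) against the share of A-site codons passed from the 5′ end (x axis, %), for uORF2 (blue) and CPC1 (black), with an even distribution as a dashed line. CPC1 stays close to the dashed line and reaches 50% at codon 133, while uORF2 jumps by 12.4% at its first codon and then lags, reaching 50% at codon 29.

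**Figure D4:**
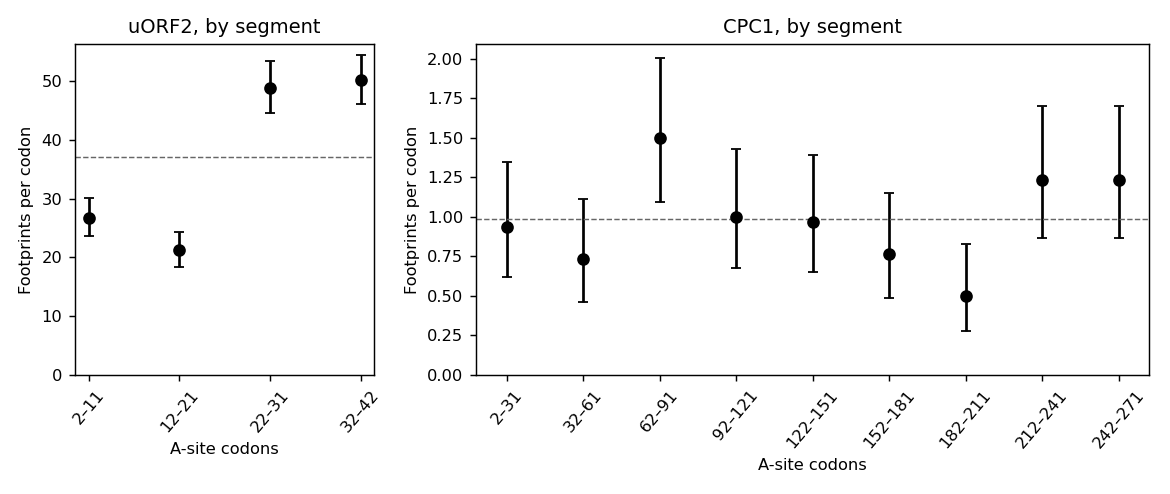
Footprints per codon (y axis) in consecutive segments of uORF2 (left, 4 segments) and CPC1 (right, 9 segments), x axis by codon numbers, with 95% Poisson intervals as bars and the mean of each ORF as a dashed line; the y axes differ. The 2 later segments of uORF2, at 48.9 and 50.2, lie above both earlier ones, and in CPC1 codons 62 to 91 and 182 to 211 lie farthest from the mean.

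The 5′ ends were also read for frame, as the first, the second or the third nucleotide of the codon assigned. In both ORFs the first nucleotide, which is the frame of the ORF itself, led, the third was next and the second was lowest. In uORF2 the shares were 70.5% (Wilson interval 68.1 to 72.7%), 20.9% (19.0 to 23.0%) and 8.62% (7.31 to 10.1%). In CPC1 they were 53.4% (47.4 to 59.3%), 33.8% (28.4 to 39.7%) and 12.8% (9.29 to 17.3%). Of the 40 uORF2 codons with footprints, 28 had most at the first nucleotide, 9 at the third and 1 at the second, with 2 ties. Of the 130 such codons of CPC1, 61 had most at the first nucleotide, 34 at the third and 16 at the second, with 19 ties.

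The own-frame share of uORF2 was not the same along its length. It was 92.1% in codons 2 to 11 (88.3 to 94.8%), 62.7% in codons 12 to 21 (56.1 to 69.0%), 73.4% in codons 22 to 31 (69.3 to 77.1%) and 60.3% in codons 32 to 42 (56.2 to 64.3%). Leaving out the largest position of each segment gave 75.6%, 56.8%, 67.7% and 52.3%, so that the order of the segments was kept. Codons 34 to 40, between the pause at codon 33 and the close of the frame, had 38.1% at the first nucleotide (31.6 to 45.2%) and 47.4% at the third (40.5 to 54.4%), and this stretch was chosen after its values were seen. In the flanking codons 27 to 33 and 41 to 42, the share at the first nucleotide was 67.9% and 79.3%. Pauses had 82.4% at the first nucleotide (78.5 to 85.7%), and the other codons of uORF2 had 65.7% (62.8 to 68.5%). Without the largest position of each, these shares were 69.7% and 62.7%.

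In CPC1 the own-frame share was 71.4% in codons 2 to 31 (52.9 to 84.7%), lay between 52.2% and 62.1% in the next 5 segments, and was 40.0%, 45.9% and 40.5% in the last 3. Over 90 codons at a time it was 60.0% in codons 2 to 91 (50.0 to 69.3%), 57.3% in codons 92 to 181 (46.5 to 67.5%) and 42.7% in codons 182 to 271 (32.9 to 53.1%), with intervals that overlapped. The last segment, codons 242 to 271, had 48.6% at the third nucleotide (33.4 to 64.1%). Codons 234 and 258, each with all 6 footprints at the third nucleotide, weighed on these values. Without the largest position, the share became 54.8% in codons 212 to 241 and 48.4% in codons 242 to 271. Codons 182 to 211 had a tie at 3 footprints, between the first nucleotide of codon 185 and the third of codon 210. Leaving out the former gave 25%, while leaving out the latter would raise the share. Over codons 182 to 271 together, the share became 45.8% when the 6 footprints of codon 234 were left out and those of codon 258 kept. Pauses of CPC1 had 56.6% at the first nucleotide (45.4 to 67.1%), and its other codons had 52.1% (45.0 to 59.1%).

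**Figure D5:**
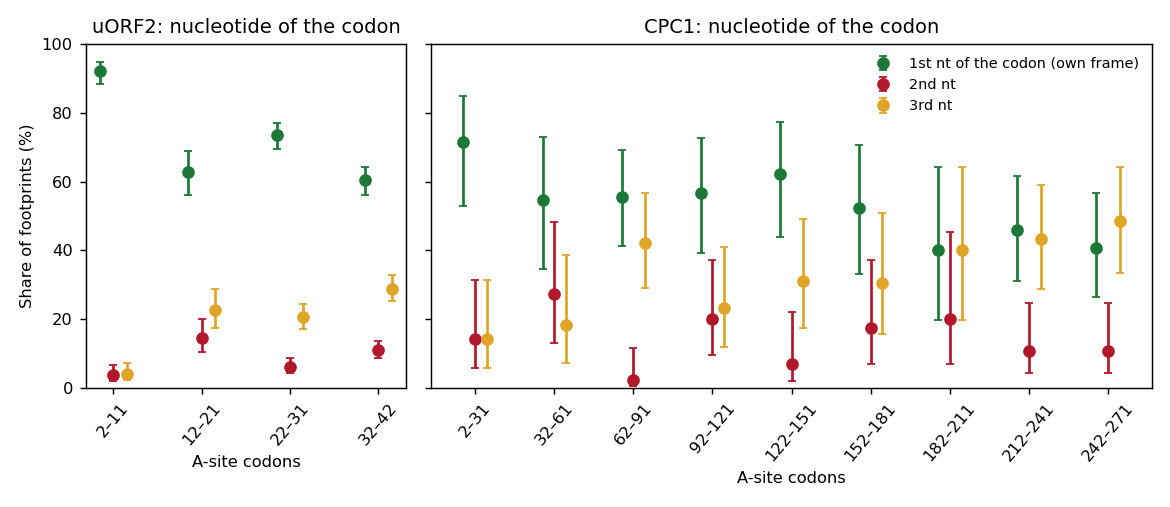
Share of footprints (y axis, %) whose 5′ end was assigned to the first (green, own frame), the second (red) or the third (yellow) nucleotide of a codon, in consecutive segments of uORF2 (left) and CPC1 (right), x axis by codon numbers, with 95% Wilson intervals as bars. In uORF2 the own-frame share is 92.1% in the first segment and 60.3% in the last, and in the last segment of CPC1 the third nucleotide, at 48.6%, is level with the first, at 40.5%.

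The second nucleotide of uORF2 codons is the frame of CPC1, whose reading frame runs open through this region. It held 131 footprints, or 3.20 per codon, against 0.526 per codon at the first nucleotide of CPC1 codons, which is the same frame. The largest of these uORF2 positions were 17 footprints at codon 41, 13 at codon 31, 11 at codon 33 and 10 at codon 34, and codons 41, 31 and 33 were also among the highest codons of uORF2 in all. Since the second nucleotide was also the lowest in CPC1 itself, with 12.8%, footprints of ribosomes in the CPC1 frame and imprecise 5′ ends of ribosomes in uORF2 cannot be told apart from these counts.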

How the data were processed

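Ribosome-protected fragments were measured in wild-type mycelium. The authors removed adapters (cutadapt 1.2.1), kept reads 28 to 31 nt long and aligned them to the sense strand of annotated transcripts (Bowtie 0.12.9, a seed of 25 nt without mismatches, every match kept), so a fragment that matches several transcripts counts on each. The deposited values are whole-number counts of 5′ ends per position, without normalization, with replicates and fragment lengths pooled. An empty count was read as 0, and 3 columns that split the same counts by position were not used. The transcript annotation is not given in the sources used here.

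Counts were summed per A-site codon with the 15-nt offset that the study used. Shares have 95% Wilson intervals and counts have exact 95% Poisson intervals. Every codon of uORF2 is named, and in CPC1 the codons with 4 or more footprints. The ORFs, limits and measures were chosen with earlier results of these data known. Values were recomputed with other offsets, thresholds, references, left-out codons and positions, own-frame footprints and each position counted once. Other uORF2 lengths, uORF2 up to codon 29, and the frame shares without the first and last codon were added after the counts were seen. Stretches of uORF2 such as codons 4 to 9, 10 to 18, 19 to 25 and 27 to 33 were also chosen then. Footprints were not related to amino acids, as no sequence was used. The codon counting was tested on simulated data. The software was Matplotlib 3.10.9, SciPy 1.17.1, NumPy 2.4.6 and Python 3.11.15.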

Additional observations from a re-analysis of the deposited data

How the results depend on the processing

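No paired analysis was possible because the table pools the replicates of 1 condition, so that neither replicate could be left out either. Of 66 values under the alternatives, 33 stayed within the interval of the value reported, or within 1.5 times it for counts of codons, and 33 moved. Some of those that stayed could not move. The count of 14 pauses in CPC1 at 2 times the mean, or against the median, was decided by the requirement of more than 3 footprints. Counts of pauses were also compared by number and not by codon, so the 2 of uORF2 with a 14-nt offset counted as stayed. Footprints per codon of uORF2 were 32.8 with a 14-nt offset, 31.03 without the first and last A-site codon, 33.3 without the highest codon, 26.1 for own-frame footprints and 23 as a median, and those of CPC1 were 0.526 for own-frame footprints and 0 as a median. Pauses of uORF2 numbered 2 with a 14-nt offset, of which 0 were among the 3 called with 15 nt, 1 with a 16-nt offset, 5 for own-frame footprints, 6 at 2 times the mean, 1 at 5 times the mean and 6 against the median, and pauses of CPC1 numbered 6 for own-frame footprints. Pauses of CPC1 numbered 14 with either offset, but they were not all the same codons. Codons 17 and 133 held 0 footprints with 14 nt, and codon 234 held 0 with 16 nt. Codons holding 50% of CPC1 numbered 22 for own-frame footprints. The stop codon of uORF2 held 2.67% with a 14-nt offset, 6.28% with a 16-nt offset, and 3.18% or 0.718% for a uORF2 of 39 or 43 codons. Codon 2 of uORF2 held 1.86% with a 14-nt offset, which moves the position with 181 footprints out of the frame, and 16.9% of own-frame footprints. The share of uORF2 in its later codons was 76.0% without the first and last codon, 75.2% without the highest codon, 64.6% for own-frame footprints and 59.2% within codons 2 to 29, and that of CPC1 was 41.5% for own-frame footprints. The own-frame share of uORF2 was 37.9% with each position counted once, 66.5% without the largest position and 65.9% without the first and last codon, and that of CPC1 was 46.2% with each position counted once. In uORF2, 103 of 123 positions had footprints, so counting each once had to give the 3 nucleotides similar shares and does not describe its frame. The 14-nt and 16-nt offsets relabel the frames by construction, with 9.73% and 19.7% for uORF2 and 12.8% and 34.1% for CPC1. Depth limits CPC1, where a codon without footprints has a Poisson interval of 0 to 3.69.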

Other observations

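Distances between high codons were looked at because a ribosome covers about the length of a footprint, so that a second ribosome behind a halted one would lie some 10 codons upstream. The 5 codons lying 8 to 12 codons upstream of the uORF2 stop codon, codons 30 to 34, held 364 footprints, or 72.8 per codon, 1.96 times the mean of uORF2, with a range from 14 at codon 32 to 122 at codon 33. That mean takes in the lower codons of the 5′ part, and codons 22 to 42 together held 49.6 per codon. The corresponding codons upstream of codon 33, codons 21 to 25, held 162 footprints, or 32.4 per codon, 0.874 times the mean. In CPC1, the codons 8 to 12 upstream of its highest codons, 17 and 133, held 2 and 4 footprints. Whether ribosomes stood one behind another was not tested, and fragments of 28 to 31 nt do not show it.

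Counts at codons a fixed distance apart were also compared. Over 40 pairs of neighbouring codons of uORF2, Pearson's r was 0.22 and Spearman's rho 0.30. At distances from 1 to 12 codons, Pearson's r ranged from -0.20 (5 codons) to 0.24 (8 codons), while Spearman's rho ranged from -0.01 (5 codons) to 0.55 (4 codons) and was 0.46 at 8 codons. These pairs share a transcript, a trend along the frame and pooled libraries, so the values are descriptions only.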
